A study of Mus musculus with 7 samples.

Results

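Mucins are the heavily glycosylated proteins that cover the colon epithelium, and 5 mucin genes, Muc1, Muc2, Muc4, Muc13 and Muc20, were followed here through dextran sulfate sodium (DSS) colitis in mice with or without earlier exposure to the dietary carcinogen PhIP. They were taken by name, through their Entrez gene identifiers, from the 18036 genes that had reads in at least 1 of 7 libraries. The choice used names and no threshold on a measured value, but it was made with earlier results of these data known. All 5 were found in all 7 libraries.

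The animals were female hCYP1A mice on the C57BL/6 strain, aged 6 weeks, a line carrying human CYP1A genes, whose enzymes activate PhIP; the untreated controls carried them too. DSS mice drank 1.5% DSS for 5 days and were sampled on day 1, 3 or 7 after it. PhIP/DSS mice first received 2 PhIP doses of 100 mg/kg, 4 days apart, then the same DSS course 1 week later, and were sampled on the same days. Epithelium was scraped from the colon muscle layer, and equal amounts of RNA from 3 mice made 1 poly(A)-selected library per condition. The labels record normal pathology for the control, colitis on days 1 and 3, and partial colitis on day 7 in either treated arm. With 1 pooled library per condition, variation between mice was not measured, and a difference between 2 libraries has no replicate check.

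Colonic mucins fall into gel-forming and membrane-bound kinds. Muc2 is the gel-forming mucin that goblet cells secrete, and its polymers build the mucus layer that keeps bacteria away from the colon surface. Muc1, Muc4, Muc13 and Muc20 are anchored in the cell membrane, where their glycosylated outer parts form the glycocalyx and their cytoplasmic tails can pass signals; Muc4 is known as a partner of the receptor ErbB2, and Muc20 has been tied to the receptor Met. Mice without Muc2 develop colitis spontaneously, which is why this mucin is a usual readout of barrier state in DSS experiments.

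On the GRCm38.p6 build, Muc2 lies on chromosome 7 from 141690340 to 141754691, between Muc6 and Muc5ac, and Muc1 on chromosome 3 from 89229056 to 89233381. The other 3 members share chromosome 16, with Muc4 from 32735886 to 32782391, Muc20 from 32777419 to 32797435 and Muc13 from 33794037 to 33819929. Muc4 and Muc20 run on opposite strands and overlap by 4973 bases, of which 627 are exon bases of both genes in the GENCODE M21 models. Neither labels nor headers state whether counting used strand, so reads from the shared exon bases cannot be assigned between Muc4 and Muc20.

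The promoter windows are shown because Muc2 and Muc4 shared 1 order of days within each arm, though not their side of the control, and Muc1 and Muc13 another order. Each is the 250 bases before the RefSeq gene start on GRCm38.p6, read 5′ to 3′ on the gene's strand, which is the plus strand for these 4 genes. Capitals mark every match, on either strand, to 8 motifs: STAT TTCNNNGAA, NF-kB GGGANTTTC, CDX TTTATNG, HNF4 CAAAGTCCA, GC box GGGCGG, E-box CAGCTG, ISRE TTTCNNTTT and KLF CACCC.
Muc2 chr7:141690090-141690339: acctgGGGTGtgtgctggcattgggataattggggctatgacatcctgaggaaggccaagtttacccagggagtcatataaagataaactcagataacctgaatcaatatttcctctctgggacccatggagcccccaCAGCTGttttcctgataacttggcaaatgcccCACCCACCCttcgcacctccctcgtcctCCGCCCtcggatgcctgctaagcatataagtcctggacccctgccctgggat
Muc4 chr16:32735636-32735885: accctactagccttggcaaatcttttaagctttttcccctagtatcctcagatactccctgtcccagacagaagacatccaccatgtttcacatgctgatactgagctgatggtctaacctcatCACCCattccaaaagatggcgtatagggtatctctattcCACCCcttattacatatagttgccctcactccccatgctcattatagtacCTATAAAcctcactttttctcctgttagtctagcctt
Muc1 chr3:89228806-89229055: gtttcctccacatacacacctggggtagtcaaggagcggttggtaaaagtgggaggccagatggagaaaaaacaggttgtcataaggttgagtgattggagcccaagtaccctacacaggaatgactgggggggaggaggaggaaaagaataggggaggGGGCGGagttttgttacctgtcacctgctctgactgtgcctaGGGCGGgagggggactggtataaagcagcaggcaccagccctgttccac
Muc13 chr16:33793787-33794036: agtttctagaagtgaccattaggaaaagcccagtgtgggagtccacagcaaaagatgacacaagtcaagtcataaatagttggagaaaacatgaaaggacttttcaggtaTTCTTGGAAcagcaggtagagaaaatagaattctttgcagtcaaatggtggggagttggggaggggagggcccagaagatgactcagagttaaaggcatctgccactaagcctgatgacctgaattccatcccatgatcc

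The Muc2 window held 3 KLF matches, of which 2 share 1 base, with 1 E-box and 1 GC box. The Muc4 window held 2 KLF matches and a CDX match on the opposite strand at bases -37 to -31 from the start. The Muc1 window held 2 GC boxes, and the window of the outer Muc13 start held 1 STAT match at bases -140 to -132. A second RefSeq start of Muc13 had 1 HNF4 match in its window, and Muc20, with its window on the minus strand, had 3 KLF matches. Among 32851 mouse promoter windows of this length, 52.0% held a KLF match, 32.7% a GC box, 13% the E-box, 9.81% the CDX, 7.02% the STAT and 0.384% the HNF4 match. No NF-kB match (0.941% of windows) and no ISRE match (9.37%) lay in the member windows. A match is a run of letters and is not evidence of binding, and no motif was common to all 4 windows printed.

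The libraries held 8399266.0 ± 373242.0 uniquely mapped reads (mean and SD over the 7 libraries), and the largest was 1.15 times the smallest. The epithelial marker Epcam was at 718 to 1018 RPKM (reads scaled to gene length and to the library total), and the 7 goblet cell markers were all present in each library. Epcam was 1 of 8 colonocyte markers, and these differed in direction. Against the control, 4 were higher and 4 lower in each treated library except day 7 of PhIP/DSS (3 higher, 5 lower). Slc26a3 was at 470 RPKM in the control and 110 to 175 in the treated libraries, and Car1 at 368 and 345 to 1881. The 4 tuft markers summed to 12.3 RPKM in the control and 2.31 to 5.44 in the treated libraries. Other cell types also differed between libraries. The summed level of 8 neutrophil markers was 2.95 RPKM in the control, where 3 of the 8 had no reads, against 36.2, 1163 and 471 on days 1, 3 and 7 of DSS and 817, 31.9 and 70.8 on the same days of PhIP/DSS. The 4 adipocyte markers summed to 115 RPKM in the day 1 PhIP/DSS library, 14.4 in the control and 0.187 to 1.59 elsewhere. The 6 fibroblast markers summed to 152 RPKM in the day 1 PhIP/DSS library and 6.66 to 79.2 in the others. The part of cell composition in the mucin values was not tested, and in bulk tissue fewer cells of a type and less RNA per cell cannot be told apart.

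Muc2 transcripts were lower in every PhIP/DSS library than in any DSS library. Muc2 stood at 1180.0 RPKM in the control, at 892, 1238 and 939 RPKM on days 1, 3 and 7 of DSS, and at 477, 807 and 548 RPKM on the same days of PhIP/DSS. Each arm had its highest level on day 3, and the arms did not overlap. Set against the control, the DSS libraries were at 0.756, 1.05 and 0.795 times its level, and the PhIP/DSS libraries at 0.404, 0.684 and 0.465 times. These ratios rest on 30000 to 80073 Muc2 reads per library, so exact 95% binomial intervals are narrow (0.399 to 0.410 for day 1 of PhIP/DSS); they cover counting error only.

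Muc13, the membrane mucin with the highest level per length here, showed a different course. It stood at 1295 RPKM in the control, at 1241, 1529.7 and 1757 RPKM on days 1, 3 and 7 of DSS, and at 1112, 1901 and 2282 RPKM on those days of PhIP/DSS. Both arms were lowest on day 1 and highest on day 7, where the levels were 1.36 and 1.76 times the control. In the day 7 PhIP/DSS library Muc13 ranked the 9th of all genes by RPKM, against the 19th in the control.

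Muc4, at a far lower level, followed the order of Muc2 over days. Its level was 32.2 RPKM in the control, 28.5, 46.3 and 40.0 on days 1, 3 and 7 of DSS, and 19.8, 34.7 and 22.8 on those days of PhIP/DSS. Day 3 was again the highest in each arm. On every day the PhIP/DSS library was below the DSS library, but the arms overlapped, because day 3 of PhIP/DSS exceeded day 1 of DSS.

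Muc1, a membrane mucin of many glandular epithelia, was scarce but had the widest range among the 4 mucins tested. Its level was 10.2 RPKM in the control, 6.71, 12.4 and 21.6 on days 1, 3 and 7 of DSS, and 5.08, 15.3 and 22.4 on those days of PhIP/DSS. Both arms went from below the control on day 1 to above it on day 7, when the ratio was 2.11 (95% counting interval 1.76 to 2.54) in DSS and 2.19 (1.83 to 2.63) in PhIP/DSS. These values rest on 97 to 420 reads.

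Muc20 was near the limit of measurement. It had 22 reads in the control, 17, 23 and 34 on days 1, 3 and 7 of DSS, and 12, 29 and 19 on those days of PhIP/DSS, or 0.383 to 1.12 RPKM, and reads covered 14.8% to 38.5% of its length. No ratio of a treated library to the control had a 95% counting interval that excluded 1. Because only 1 library reached 1 RPKM, Muc20 did not pass the filter of 1 RPKM in at least 2 libraries, and 4 of the 5 mucins were tested.

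**Figure D1:**
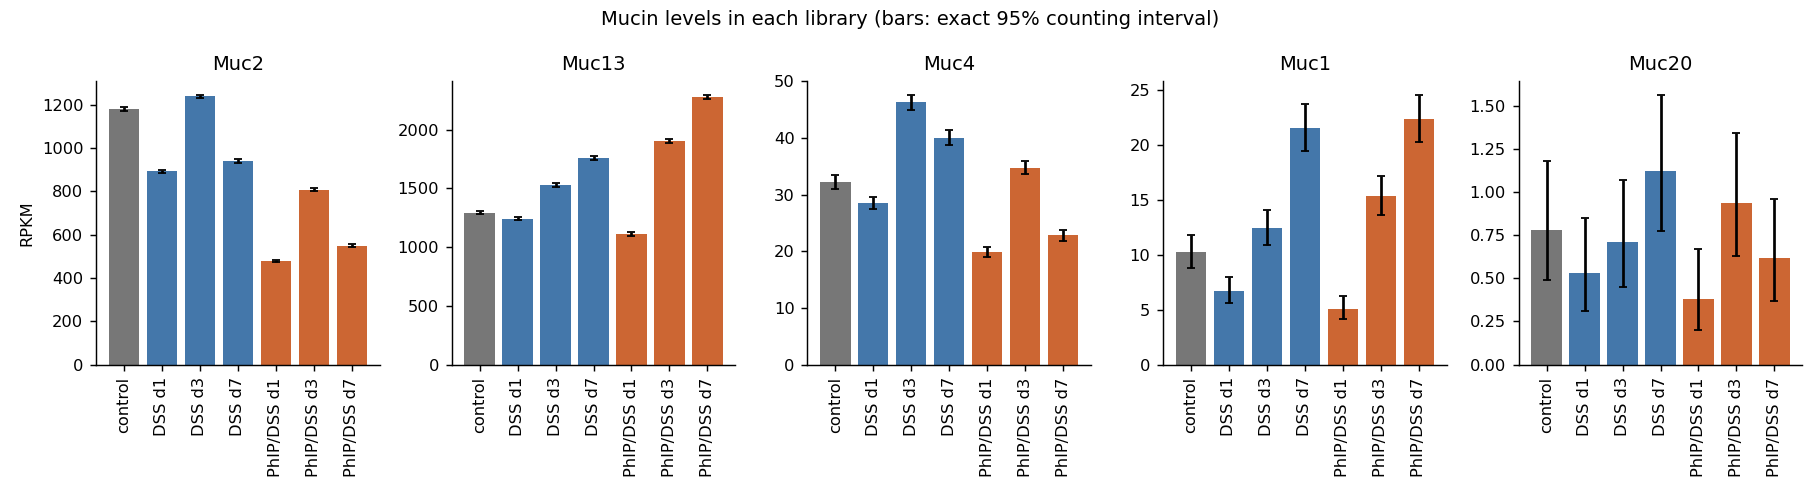
Level of each mucin gene (RPKM, linear axis from 0, a separate scale per gene) in the control, DSS and PhIP/DSS libraries on days 1, 3 and 7; bars give 1 library each and error bars the exact 95% counting interval. Muc2 is at 477 to 807 RPKM in the PhIP/DSS libraries and 892 to 1238 in the DSS libraries, while Muc13 and Muc1 are highest on day 7 of each arm.

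Among the 12061 genes tested, 9.56% were higher on day 3 than on day 1 and higher on day 7 than on day 3 in both arms, as Muc1 and Muc13 were, and 5.61% were highest on day 3 in both arms, as Muc2 and Muc4 were. These 2 patterns were chosen after the values were seen. Counted by the 2-fold rule against the control, 3 of the 5 mucins were at least 2-fold lower on day 1 of PhIP/DSS (Muc1, Muc2 and Muc20), where 9.74% of genes were; the interval of Muc20, 0.221 to 1.03, included 1. On day 7 of PhIP/DSS, Muc2 was at least 2-fold lower (3.88% of genes) and Muc1 at least 2-fold higher (7.9% of genes). On day 7 of DSS, Muc1 was at least 2-fold higher (8.19% of genes). No mucin was 2-fold lower there (5.18% of genes). No mucin passed the rule on day 1 of DSS (6.91% of genes higher, 6.18% lower), day 3 of DSS (8.11% and 6.39%) or day 3 of PhIP/DSS (5.8% and 4.29%), and none was 2-fold higher on day 1 of PhIP/DSS (12.2% of genes).

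**Figure D2:**
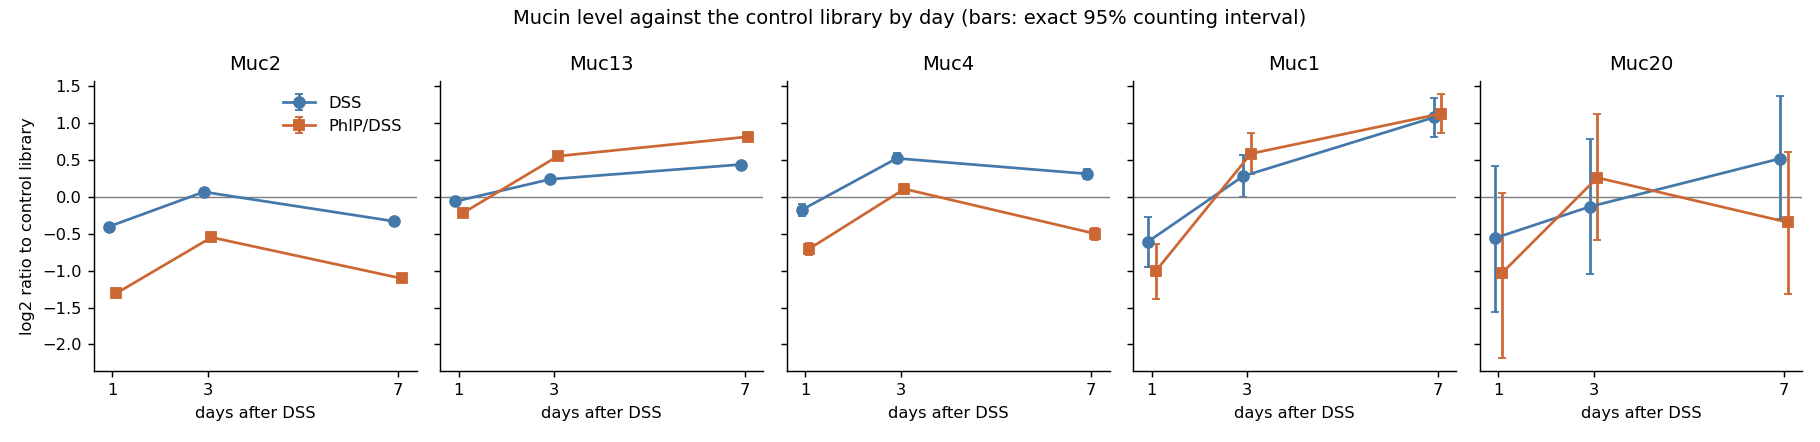
Log2 ratio of each mucin to the control library against days after DSS (1, 3 and 7), with circles for DSS, squares for PhIP/DSS and bars for the exact 95% counting interval. The PhIP/DSS points of Muc2 lie below its DSS points on each day, and Muc1 runs from below 0 on day 1 to above 1 on day 7 in both arms.

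The balance between Muc2 and the membrane mucins followed here, mostly Muc13, differed between libraries. It leaves out other membrane mucins, as Muc3, Muc12 and Muc17 were not analysed here. Per length, Muc2 made up 46.9% of the summed RPKM of the 5 mucins in the control, 41.1%, 43.8% and 34.0% on days 1, 3 and 7 of DSS, and 29.5%, 29.3% and 19.1% on those days of PhIP/DSS. Muc13 held 51.4% in the control and 79.3% on day 7 of PhIP/DSS. The ratio of Muc13 to Muc2 was thus 1.10 in the control, 1.24 to 1.87 in DSS and 2.33, 2.35 and 4.16 on days 1, 3 and 7 of PhIP/DSS, with no overlap between the arms. The summed level of the 5 genes was lowest on day 1 of PhIP/DSS, at 1614 RPKM, and ran from 2169 to 2876 RPKM in the other libraries.

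**Figure D3:**
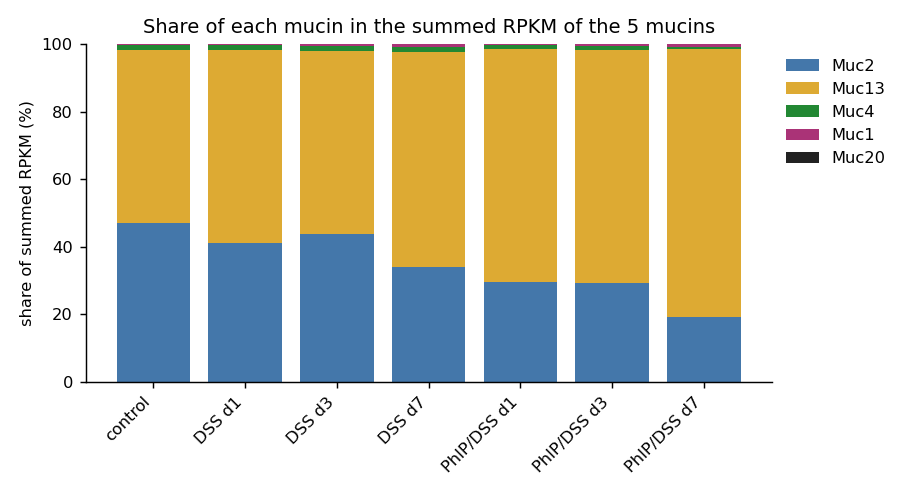
Stacked bars of the share (%) of each mucin in the summed RPKM of the 5 mucins, 1 bar per library from 0 to 100%. The Muc2 share is 46.9% in the control and 19.1% on day 7 of PhIP/DSS, and Muc13 takes up most of the rest.

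The change with time was tested across all genes with edgeR's quasi-likelihood model. It had separate levels for the control and the 3 days plus 1 PhIP term, which leaves 2 residual degrees of freedom. These come from arm differences that change with the day, because no condition had a second library. None of the 4 mucins passed an adjusted p of 0.05 on day 1, 3 or 7 against the control or on day 7 against day 1, and neither did any of the 12061 genes (0.0% called in each). At an unadjusted p under 0.05, the same test had 3932, 2291, 2076 and 3172 genes, and DESeq2 called 1243, 438, 459 and 693. As the mean of both arms, Muc2 was at a log2 fold change of -0.86 (SE 0.17) against the control on day 1, -0.21 (SE 0.17) on day 3 and -0.69 (SE 0.17) on day 7; the edgeR adjusted p was 0.0712, 0.522 and 0.187. Read from the same fit for 1 arm, these were -0.47, 0.18 and -0.30 for DSS and -1.25, -0.60 and -1.08 for PhIP/DSS, none called. Both arms inform each of these values, and the arms differ in them by the same PhIP term on every day. Muc1 was at -0.80 (SE 0.24), 0.47 (SE 0.24) and 1.13 (SE 0.25), with an edgeR adjusted p of 0.103, 0.348 and 0.161. Between day 1 and day 7, Muc1 differed by 1.93 (SE 0.20, edgeR adjusted p 0.0934) and Muc13 by 0.80 (SE 0.18, edgeR adjusted p 0.101) on the log2 scale, both higher on day 7. Muc13 was at 0.66 (SE 0.22, edgeR adjusted p 0.263) and Muc4 at -0.06 (SE 0.16, edgeR adjusted p 0.862) on day 7 against the control.

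These tests turned on the day 1 libraries and on the tool. Among edgeR fits with 1 library left out, mucins were called only without a day 1 library. Such a fit has fewer residual degrees of freedom, as has a fit without any other treated library. Its lone day 1 library is assumed to vary like the others. The closing section gives the range of all genes called over these fits, and log2 fold changes alone are given here. With 1 library left out in turn, Muc2 ran from -0.96 to -0.77 on day 1 and from -0.71 to -0.67 on day 7 against the control. On those days Muc1 ran from -1.09 to -0.54 and from 1.09 to 1.17. Muc13 ran from 0.51 to 0.80 on day 7. DESeq2 uses a Wald test, which makes no allowance for the few residual degrees of freedom, so its p-values are not comparable with edgeR's. DESeq2 with the same design called Muc2 on day 1 (adjusted p 4.99e-07) and Muc2 and Muc13 on day 7 (0.000177 and 0.0315). It also called Muc1 and Muc13 between day 1 and day 7 (1.64e-06 and 9.72e-05). For that last comparison, edgeR's log2 fold change with 1 library left out in turn ran from 1.67 to 2.22 for Muc1 and from 0.56 to 1.05 for Muc13.

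The arms were then compared within days, and Muc2 and Muc4 were lower in the PhIP/DSS library than in the DSS library on each of the 3 days. Muc2 in the PhIP/DSS library was at 0.535 (95% counting interval 0.527 to 0.542), 0.652 (0.645 to 0.660) and 0.584 (0.576 to 0.592) times the DSS library on days 1, 3 and 7. Muc4 was at 0.694 (0.654 to 0.736), 0.750 (0.717 to 0.785) and 0.570 (0.540 to 0.601) times. The other mucins did not keep 1 direction over the days. Muc13 was at 0.896, 1.24 and 1.30 times the DSS library, and Muc1 at 0.757, 1.23 and 1.04 times, where the last interval, 0.902 to 1.19, included 1. Muc20 was at 0.722, 1.31 and 0.549 times, and the intervals of days 1 and 3 included 1. Of the 13 cell type marker lists, 3 had a higher sum in PhIP/DSS than in DSS on all 3 days and 1, the goblet markers, a lower one. Zg16 made up the largest part of the goblet sum (7612 of 13629 RPKM on day 3 of DSS), and single goblet markers differed in direction. On day 3, Clca1, Fcgbp, Spdef and Atoh1 were higher in PhIP/DSS and Zg16, Tff3 and Agr2 lower. Only Tff3 was higher on day 1, and only Clca1 and Atoh1 on day 7. The 4 enteroendocrine markers summed to 467, 519 and 357 RPKM in PhIP/DSS against 390, 297 and 281 in DSS on days 1, 3 and 7. The 5 B and plasma cell markers summed to 38.4, 23.4 and 79.3 against 13.97, 22.6 and 41.7, and the 6 T and NK cell markers to 13.7, 7.01 and 11.6 against 6.79, 5.81 and 7.97. No gene of these 3 lists was at 0 in any library, and their part in the mucin differences was not tested.

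Of the 12061 genes, 10.2% were lower in PhIP/DSS on all 3 days and 2.53% had all 3 PhIP/DSS libraries under all 3 DSS libraries, as Muc2 did. Only 16 genes, or 0.133%, were at least 1.5-fold lower on all 3 days. Muc2 was 1 of them and had the highest level; the next highest was Sgk1, a kinase that regulates sodium transport, at 40.8 to 114 RPKM. These 3 shares follow rules chosen after the values were seen. None of the 5 mucins reached a 2-fold difference between the arms on any day. By that rule 6.62%, 2.19% and 1.97% of genes were higher in PhIP/DSS on days 1, 3 and 7, and 2.06%, 4.46% and 2.72% lower.

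In edgeR's fit over all days, PhIP/DSS against DSS gave a log2 fold change of -0.78 (SE 0.12) for Muc2, -0.60 (SE 0.11) for Muc4, 0.16 (SE 0.15) for Muc13 and -0.02 (SE 0.16) for Muc1. The adjusted p was 0.998 for all 4 mucins, and no gene of 12061 passed 0.05 (0.0% called). At an unadjusted p under 0.05 there were 442 genes, a smaller share of the 12061 than 0.05 itself. Ordered by that p-value, Muc2 was the 9th gene and Muc4 the 24th. The Wald test of DESeq2 makes no allowance for the few residual degrees of freedom, so its p-values are not comparable with edgeR's. DESeq2 called 13 of the 12061 genes entered, among them Muc2 with the smallest adjusted p (8.32e-12) and Muc4 with the 5th smallest (0.00661). The others were Sgk1, Gbp2, B2m, Cd74, Ahcyl2, Retnlb, Tppp3, Hsd11b2, Car3, Iigp1 and Irf7, of which B2m and Cd74 serve antigen presentation and Gbp2, Iigp1 and Irf7 are interferon-induced. With 1 library left out in turn, edgeR's log2 fold change ran from -0.86 to -0.72 for Muc2 and from -0.69 to -0.48 for Muc4. Mucins were called there only in fits without a day 1 library. Leaving out any treated library leaves 1 library on its day and fewer residual degrees of freedom.

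**Figure D4:**
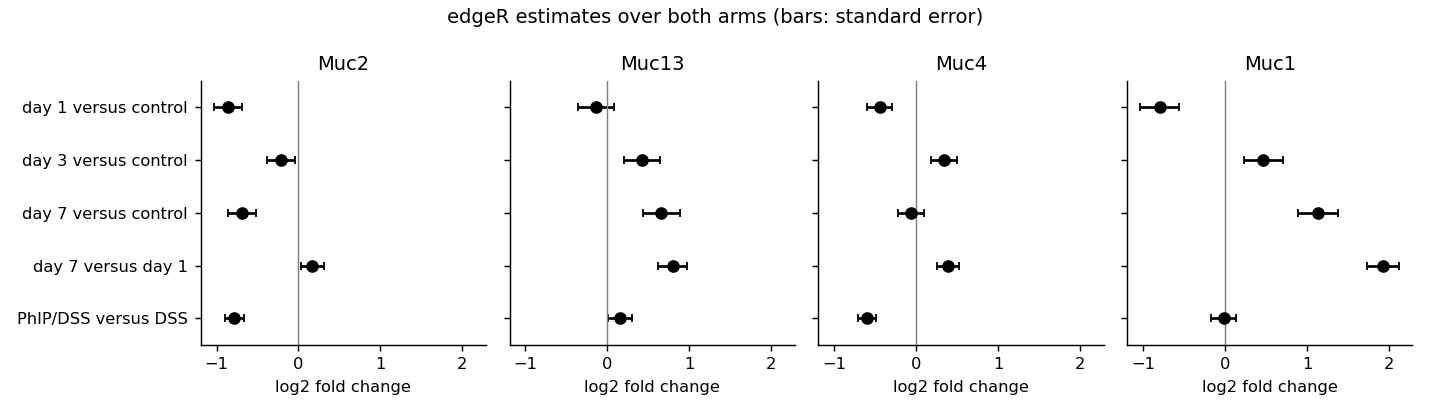
Log2 fold change of the 4 mucins tested in the 5 comparisons of the edgeR fit, with the standard error as bars and a line at 0. Muc2 and Muc4 lie at -0.78 and -0.60 for PhIP/DSS against DSS, and Muc1 has the widest difference between day 7 and day 1, at 1.93.

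The 13 genes for other mucus and goblet granule proteins had a median arm ratio nearer to 1 than the ratio of Muc2 itself. Their median ratio of PhIP/DSS to DSS was 0.869, 1.05 and 0.967 on days 1, 3 and 7. On those days 12, 12 and 13 of the 13 had a higher ratio than Muc2. Of the 13, 3 (Zg16, Agr2 and Retnlb) were lower in PhIP/DSS on all 3 days, as were 10.2% of all genes. These comparisons were chosen after the values were seen and have no test. In edgeR's fit over all days, 11 of the 13 were lower in PhIP/DSS and 2 higher, at a median log2 fold change of -0.06 against -0.01 over all genes. Of the 11, 1 had an unadjusted p under 0.05. Retnlb, a goblet cell protein that acts on bacteria, was at 1227 RPKM in the control, 2236, 4683 and 2426 on days 1, 3 and 7 of DSS, and 1864, 3033 and 1525 on those days of PhIP/DSS. The summed level of the 7 goblet markers, a list with 5 genes in common with these 13, was 7409, 13629 and 12076 RPKM in DSS and 7018, 12294 and 11076 in PhIP/DSS.

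**Figure D5:**
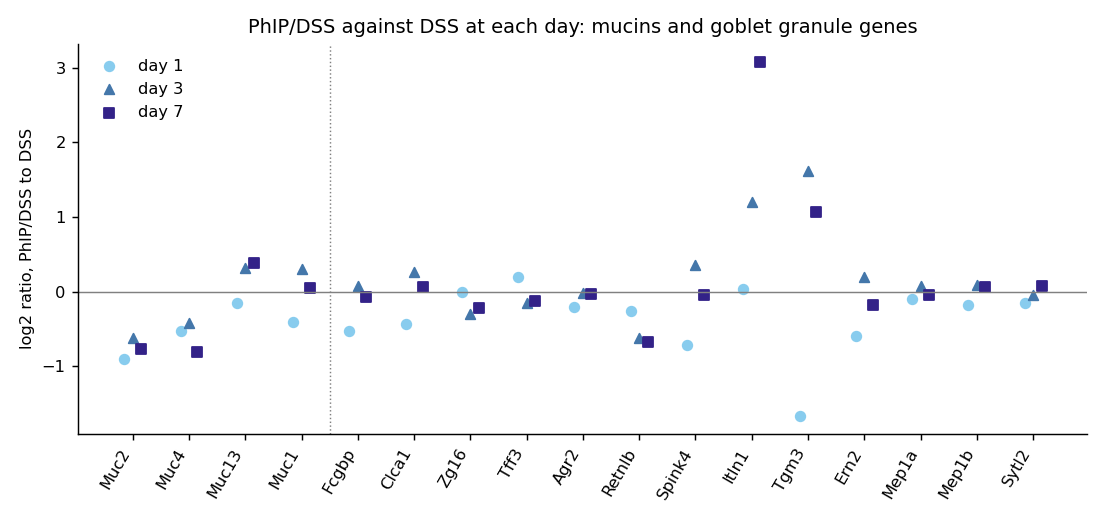
Log2 ratio of PhIP/DSS to DSS on days 1, 3 and 7 (circles, triangles, squares) for the 4 mucins tested, left of the dotted line, and 13 goblet granule genes, right of it. Muc2 and Muc4 are below 0 on all 3 days, while 10 of the 13 granule genes have at least 1 day above 0.

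Against the control, most granule genes were lower on day 1 and most were higher on day 7. None was called by edgeR in any comparison. On day 1 against the control, 3 of 13 were higher and 10 lower, with a median log2 fold change of -0.66 against 0.01 over all genes, and 2 and 7 of them had an unadjusted p under 0.05, where 16.4% and 16.2% of all genes did. On day 7, 8 were higher and 5 lower, with a median of 0.25 against -0.01 over all genes. Genes named from this list and those of regulators, transferases and membrane mucin partners were picked by their median difference from the control. Their distance from the control is thus no separate finding. Mep1a, a subunit of the membrane protease meprin, was at 183 RPKM in the control and 67.2 to 87.1 in all 6 treated libraries. Tgm3, a transglutaminase that cross-links Muc2, was at 542 RPKM in the control and 35.2 to 223 in the treated libraries. Spink4, a secreted goblet cell peptide, was at 849.7 RPKM in the control, 989, 1937 and 1780.3 on days 1, 3 and 7 of DSS, and 605, 2474 and 1722 on those days of PhIP/DSS.

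Of 14 regulators of goblet cell fate, 13 were lower on day 1 than in the control, with a median log2 fold change of -0.57 against 0.01 over all genes. Of them, 6 were lower at an unadjusted p under 0.05, as were 16.2% of all genes, and none was called by edgeR. Atoh1, the transcription factor that commits cells to the secretory lineage, was at 65.8 RPKM in the control, 38.3, 44.6 and 38.9 on days 1, 3 and 7 of DSS, and 27.3, 53.4 and 51.9 on those days of PhIP/DSS. Creb3l1, a transcription factor activated in the endoplasmic reticulum, was at 310.0 RPKM in the control and 145 to 279 in the treated libraries. Dll1, a Notch ligand, was at 6.02 RPKM in the control and 1.92 to 3.97 in the treated libraries. Notch1, the receptor, was at 6.35 RPKM and 3.47 to 4.46. Between the arms, 7 regulators were higher and 7 lower in the fit, with a median log2 fold change of -0.0015.

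Mucins are built out by O-glycan transferases, and 26 of the 27 listed genes were tested, with none called by edgeR. On day 3 against the control 21 were higher and 5 lower, with a median log2 fold change of 0.44 against 0.01 over all genes. In PhIP/DSS against DSS, 24 of 26 were lower, at a median of -0.17 against -0.01. Of them, 5 were lower at an unadjusted edgeR p under 0.05, which 442 of all 12061 genes passed in either direction. By day, 9 of the 26 were lower on all 3 days, as were 10.2% of all genes, and the median ratios were 0.883, 0.907 and 0.920. St3gal4, a sialyltransferase, was at 0.951 RPKM in the control, 66.6, 32.1 and 26.0 on days 1, 3 and 7 of DSS, and 7.05, 4.04 and 25.1 on those days of PhIP/DSS. B3gnt7, which extends glycan chains, was at 509.8 RPKM in the control and 64.3 to 281 in the treated libraries. Galnt3, which starts O-glycans, was at 21.8 RPKM in the control and 41.9 to 51.3 in the treated libraries, and Gcnt4, a branching enzyme, at 0.766 and 1.98 to 3.41. Both were above the control in every treated library, and the size of that difference is how they were chosen.

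Of 13 partners and sheddases of membrane mucins, 12 were tested and none was called by edgeR. Erbb3, a receptor that pairs with ErbB2, was at 91.7 RPKM in the control, 48.9, 53.5 and 71.2 on days 1, 3 and 7 of DSS, and 35.6, 55.2 and 74.0 on those days of PhIP/DSS. Erbb2 was at 60.6 RPKM in the control and 32.7 to 49.3 in the treated libraries. The sheddases Adam10 and Adam17 were higher in each treated library than in the control, at 53.4 to 70.1 against 41.3 RPKM and 12.5 to 16.1 against 10.2 RPKM.

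Of 17 further mucin and mucin-like genes, 8 had reads and only Cd164, a sialomucin, and Mcam, an adhesion molecule, passed the filter. Cd164 was at 118 to 145 RPKM in all 7 libraries, above Muc4 and Muc1 in each, and Mcam at 0.164 to 1.17. The gastric gel-forming mucin Muc6 was at 0.0685 to 0.375 RPKM, Muc5ac had reads in the day 1 DSS library alone (0.0135 RPKM), and Muc5b was at 0.00872 RPKM or less. Emcn, an endothelial mucin, was listed at 0 in the control and at up to 1.19 RPKM, Mucl3 was at up to 0.1 RPKM and Muc21 at up to 0.0695 RPKM. The other 9 genes of that list, Muc3, Muc12 and Muc17 among them, were not analysed here.

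Over the 7 libraries 4 of the 5 mucins paired most closely by Pearson's r of log2(RPKM + 1), given as a description of libraries that share arms and days. Muc1 and Muc13 had r = 0.93 and Muc2 and Muc4 r = 0.88, against 0.15 for Muc1 with Muc2 -0.09 for Muc2 with Muc13, 0.41 for Muc1 with Muc4 and 0.20 for Muc4 with Muc13. Muc20 stood between the pairs, at 0.74 with Muc1, 0.74 with Muc4, 0.55 with Muc2 and 0.53 with Muc13. Of 6152 other genes with a mean of at least 10 RPKM, those most alike in course included Mafk (r = 0.99) and Etv3 for Muc1, Tnfrsf21 (r = 0.98), Elapor1 and Crybg2 for Muc2, and Tax1bp3 (r = 0.99), Spats2l and Adar for Muc13. For Muc4 they were Rundc1 (r = 0.93), Zfp664 and Mia3. For Muc20, which rests on 12 to 34 reads per library, they were Smad7 (r = 0.93), Cacnb3 and Ccny. An r of at least 0.9 was reached by 114 genes for Muc1 and 61 for Muc13, and by 12 for Muc2 and 5 for Muc4.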

How the data were processed

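RNA-seq was done on 7 libraries of scraped mouse colon epithelium (Illumina, per the labels' protocols), each a pool of 3 mice. Per the file headers, each deposited table holds counts of uniquely mapped reads per Entrez gene, gene length, RPKM and the percent of the length covered. The deposited counts summed to the stated totals, and RPKM equalled reads over length and total. The submitters' processing notes name mm10 and FastQC, with aligner, counter, annotation and strand not given in the sources used here. Groups and days follow the labels; the table names code those days as 3, 7 and 17, and the control as 7, so the codes coincide in part with other label days. What the codes count from is not stated.

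For the 12061 genes that reached 1 RPKM in 2 or more libraries, counts went into edgeR 4.0.16 under R 4.3.3 (TMM, quasi-likelihood, level per day and control plus PhIP term, Benjamini-Hochberg over all genes), checked on simulated counts. DESeq2 1.42.0, other normalization, no filter, models without the PhIP term or day levels, and leaving out each library were alternatives. The written design did not say over which arm a day is compared with the control: a first run used the DSS arm alone, and the mean of both arms was set after its results were seen. The closing section gives the contrast for each arm, read from the same fit of all libraries. No condition had 2 libraries, so the residual spread of the fit is how far the arms differ by day beyond the 1 PhIP term. P-values measure that spread only, so an arm difference that changes with the day counts as noise in them. Ratios of 2 libraries use depth-scaled reads with exact 95% conditional binomial intervals, which cover counting error only.

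The mucins and gene lists were chosen with earlier results of these data known. All 5 mucins are named, up to 4 genes per list by the largest absolute median log2 ratio to the control, list mucins with reads, and the 3 genes most alike to each member, of which 1 is not reported here; Retnlb, Zg16, Agr2, Sgk1 and the genes called by DESeq2 are also named, by counts chosen after the values were seen. Sequences are RefSeq promoters (GRCm38.p6), matched for all 5 members.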

Additional observations from a re-analysis of the deposited data

Results flagged for a closer look

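For 2 mucins, the DSS and PhIP/DSS libraries of 1 day lay on opposite sides of the control, with counting intervals that excluded 1 in each. On day 3, Muc2 was at 1.05 times the control (95% counting interval 1.04 to 1.06) in DSS and at 0.684 times (0.676 to 0.692) in PhIP/DSS. On day 7, Muc4 was at 1.24 times the control (1.18 to 1.31) in DSS and at 0.709 times (0.670 to 0.750) in PhIP/DSS. With 1 library per condition, the difference between the arms on a single day was not tested.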

How the results depend on the processing

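With 2 residual degrees of freedom, the fit called no gene, and calls came with other settings. DESeq2 called 1, 2, 2 and 2 mucins on day 1 and day 7 against the control, on day 7 against day 1, and between the arms, and 1243, 438, 459, 693 and 13 genes in the 5 comparisons (days 1, 3 and 7 against the control, day 7 against day 1, PhIP/DSS against DSS). Without the PhIP term, 1305, 27, 59 and 57 genes were called in the 4 comparisons of days, and 1 mucin (Muc1, day 7 against day 1). With no filter, 6, 3 and 29 genes were called on days 1, 3 and 7. Leaving out 1 library in turn gave 0 to 2, 0 to 0, 0 to 3, 0 to 2 and 0 to 2 mucins and 0 to 4280, 0 to 2271, 0 to 2010, 0 to 2986 and 0 to 324 genes; all mucin calls came without a day 1 library. The cause was not tested. Contrasts for 1 arm were listed after the data were seen. They are read from the same fit of all libraries, so both arms inform each value. The arms differ in them by the same PhIP term on every day. For the DSS arm, the contrast of the first run, 0, 1 and 1 genes were called on days 1, 3 and 7. There Muc2 on day 3 (0.18) and Muc4 on day 7 (0.24) reversed sign. On days 1, 3 and 7, Muc2 was at -0.47, 0.18 and -0.30 for DSS and -1.25, -0.60 and -1.08 for PhIP/DSS. In the same order, Muc4 was at -0.15, 0.64 and 0.24 and at -0.75, 0.04 and -0.36. Muc13 was at -0.22, 0.34 and 0.58 and at -0.06, 0.50 and 0.74. Muc1 was at -0.79, 0.48 and 1.14 and at -0.81, 0.46 and 1.12. The libraries themselves differed from these fitted values. On day 1, the log2 ratio of Muc13 to the control was -0.06 in DSS and -0.22 in PhIP/DSS, and that of Muc1 -0.61 and -1.01. With 1 library left out, Muc13 on day 1 ran from -0.39 to 0.096 (reversed without the day 1 PhIP/DSS library), Muc4 on day 7 from -0.24 to 0.11 (reversed without the day 7 PhIP/DSS library) and Muc1 between the arms from -0.18 to 0.15 (reversed without either day 1 library); without day levels, Muc1 was at 0.053. Of 232 alternative values of single mucins, 201 kept direction and side of the threshold, 24 passed it newly and 7 reversed. TMM scaling moved 75 ratios of libraries by at most 3.19%, and none crossed 1. Depth limits Muc20 (12 to 34 reads) and Muc1 (97 to 420 reads). The comparison of arms is made within days by the day levels.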
